A study of Mus musculus with 24 samples.

Results

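Nuclear receptors are transcription factors that bind short DNA elements and, in most cases, a small fat-soluble ligand such as a steroid, a retinoid, a bile acid or a fatty acid. Many bind DNA as a pair with a retinoid X receptor (RXR), and without ligand some of them hold a corepressor at the gene. In liver they are known for the control of bile acid, lipid and drug metabolism, in heart and kidney for fuel and salt handling, and in brain for hormone feedback and cortical patterning. H3K27Ac, histone H3 acetylated at lysine 27, marks active promoters and enhancers, so the values below are signals of that mark over each receptor gene and not amounts of RNA or protein.

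The members were the rows of the table whose gene symbol is on a fixed list of 47 nuclear receptor genes, and all 47 were found among its 27179 genes. They were sorted by role into 5 steroid hormone receptors, 6 receptors for thyroid hormone, retinoids and vitamin D, 3 RXR partners, 9 sensors of lipids, bile acids and foreign compounds, 2 HNF4 receptors, 5 genes of the NR5A, NR6A and NR0B groups, 3 estrogen-related receptors, 4 clock receptors, 7 COUP-TF and related NR2 genes and 3 NR4A genes. The values came from H3K27Ac chromatin immunoprecipitation and sequencing of mouse brain, heart, kidney and liver, snap-frozen tissue being called Frozen and tissue kept in paraffin after fixation in 10% formalin being called FFPE. Frozen cores were crosslinked in 1% formaldehyde for 30 min, and FFPE chromatin was extracted at 95 °C for 20 min. The table holds 1 column for each of the 8 combinations, and each is called a library here. The labels describe 2 H3K27Ac samples per combination, and no source used here says whether a column is 1 of them or the merged reads of both. This bears on what the spread between columns measures. The labels give no strain, sex, age, genotype or animal for a column, so preservation and any difference between the mice cannot be told apart. The tissue is bulk, and fewer cells of a type and less signal per cell cannot be told apart.

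The sequences of 6 upstream windows show how unlike the start regions of receptor genes high in liver are. They come from RefSeq's promoter table of build GRCm38.p6, were cut to the 250 bases before a start, and are written 5′ to 3′ on the strand of the gene. The first 4 belong to genes with some of the largest liver differences. Capitals mark 4 motifs, each searched on both strands. AGGTCA is the core element that many, but not all, nuclear receptors bind. GTTAAT is the core element of HNF1, a factor of liver and kidney. CACGTG is the E-box read by the circadian activators. TATAAA is the TATA box of core promoters.
Hnf4a, second start, chr2:163546905-163547154, plus strand: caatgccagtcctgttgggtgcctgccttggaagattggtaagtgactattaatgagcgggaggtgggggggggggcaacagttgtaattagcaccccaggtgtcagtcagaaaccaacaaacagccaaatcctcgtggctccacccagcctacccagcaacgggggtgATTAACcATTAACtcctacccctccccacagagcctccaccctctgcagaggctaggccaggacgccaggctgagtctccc
Nr1h4, chr10:89506659-89506908, minus strand: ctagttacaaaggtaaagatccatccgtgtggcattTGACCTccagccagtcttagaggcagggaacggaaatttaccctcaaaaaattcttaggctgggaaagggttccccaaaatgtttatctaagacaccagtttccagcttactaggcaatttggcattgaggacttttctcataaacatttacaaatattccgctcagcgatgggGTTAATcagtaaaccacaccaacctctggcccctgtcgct
Nr0b2, chr4:133553126-133553375, plus strand: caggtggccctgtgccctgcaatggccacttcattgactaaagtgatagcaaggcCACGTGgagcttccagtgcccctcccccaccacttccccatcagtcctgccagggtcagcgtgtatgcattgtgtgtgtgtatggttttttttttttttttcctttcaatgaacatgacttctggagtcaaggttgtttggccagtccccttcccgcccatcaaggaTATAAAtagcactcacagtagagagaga
Nr5a2, chr1:136960449-136960698, minus strand: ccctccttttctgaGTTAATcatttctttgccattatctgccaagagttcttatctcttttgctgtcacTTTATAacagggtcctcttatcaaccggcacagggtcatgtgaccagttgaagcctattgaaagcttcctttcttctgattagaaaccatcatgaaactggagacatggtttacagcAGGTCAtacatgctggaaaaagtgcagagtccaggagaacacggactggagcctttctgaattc
The Hnf4a window held GTTAAT 2 times on the opposite strand, at bases -81 to -76 and -74 to -69 from the start. Nr1h4 held it at -40 to -35, and Nr5a2 at -236 to -231. Nr0b2 had TATAAA at -28 to -23. The sequences shown do not stand for all starts of genes high in liver. The first start of Hnf4a, the other start of Nr5a2 and the window of Nr1i2 are not shown and held none of the 4 motifs. The other 2 sequences are shown for their CG content, with each CG in capitals, and stop before the outermost start of the gene.
Nr1i3, chr1:171213720-171213933, plus strand: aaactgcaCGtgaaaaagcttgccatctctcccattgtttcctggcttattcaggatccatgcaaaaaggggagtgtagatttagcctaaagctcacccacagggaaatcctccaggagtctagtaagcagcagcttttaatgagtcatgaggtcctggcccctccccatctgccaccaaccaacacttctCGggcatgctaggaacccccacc
Nr2f6, chr8:71381968-71382202, minus strand: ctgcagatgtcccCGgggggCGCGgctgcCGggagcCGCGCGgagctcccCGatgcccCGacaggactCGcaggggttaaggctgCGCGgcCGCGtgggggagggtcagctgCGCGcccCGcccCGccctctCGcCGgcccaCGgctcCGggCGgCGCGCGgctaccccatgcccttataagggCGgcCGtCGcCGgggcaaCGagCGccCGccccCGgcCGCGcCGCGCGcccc
Nr1i3 had 2 CGs in 214 bases and Nr2f6 had 39 in 235, and both genes were higher in liver. Windows of 250 bases were matched for 43 of the 47 genes, 64 windows in all, and held a median of 10.5 CGs against 6 in the 32851 windows of all genes. The 22 windows of 14 receptor genes higher in liver had a median of 6 CGs and a range from 1 to 42. GTTAAT was in 5 of the 64 windows (7.81%) against 6.43% of all windows, and in 3 of those 22, all of which are shown above. AGGTCA was in 11 of the 64 (17.2%) against 14% of all. CACGTG was in 7.81% of the receptor windows and 6.02% of all, and TATAAA in 12.5% and 12.4%. These matches are letters in a window and were not tested as sites.

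**Figure D1:**
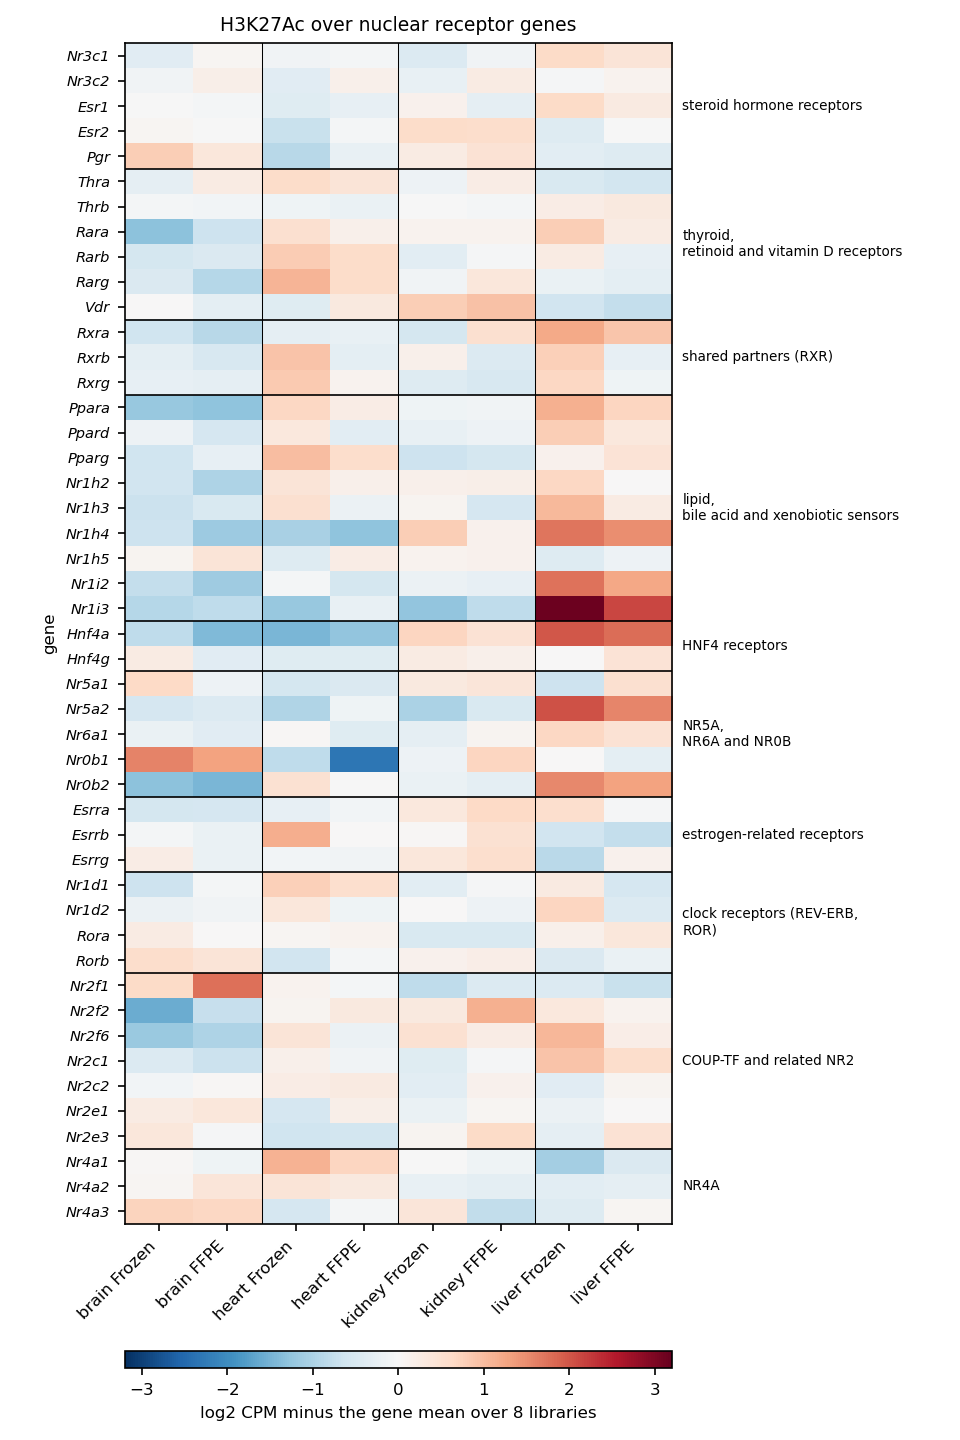
H3K27Ac over the 47 nuclear receptor genes (rows, grouped by role) in the 8 libraries (columns), as log2 CPM minus the mean of the gene over the 8 libraries. The darkest red cell is Nr1i3 in liver Frozen, 3.14 above its mean, both liver libraries are red for Nr1i3 and Hnf4a, and the deepest blue is Nr0b1 in heart FFPE, at -2.30.

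Values are log2 CPM, the logarithm to base 2 of counts scaled to library size, and are compared between libraries for 1 gene, not between genes, because longer genes collect more reads. Total counts ran from 4404789 to 6164562 per library, and mitochondrial genes took 4.53% to 5.62% of the counts in Frozen and 12.7% to 36.0% in FFPE libraries. The receptor genes had a median of 203 counts per library, which carries a 95% counting interval of about 0.2 log2 units on either side, and only Nr0b1 fell under 10 counts anywhere. The labels of the organs held: 9 of 10 neuron markers were higher in brain, 9 of 10 cardiomyocyte markers in heart, 8 of 10 nephron markers in kidney and 10 of 10 hepatocyte markers in liver. Each organ was compared with the mean of the other 3 by limma over 26944 genes, so 2 libraries stand against 6, and a gene passed when its p after Benjamini-Hochberg adjustment was under 0.05. In what follows each pair of values is Frozen then FFPE, a difference is in log2 units with its standard error (SE), and an adjusted p is from limma.

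Among the 47 genes, 30 (63.8%) differed among the organs by limma's F test, against 34.7% of all genes tested. In single comparisons 31 genes passed in at least 1 organ and 16 in none, and the matching share of all genes is not given. Liver held the highest mean for 21 of the 47 genes, heart for 11, brain for 8 and kidney for 7. Brain held the lowest mean for 18 genes. These ranks were not set against those of all genes either. The organ comparisons share libraries, so a gene that is high in liver alone also falls below the mean of the others in brain, heart and kidney. With a prior variance that does not follow the mean level, limma kept 23 of the 63 calls made over the organs and preservation.

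Among the 9 sensors of lipids, bile acids and foreign compounds, 6 were higher in liver, and Pparg, Nr1h2 and Nr1h5 did not pass. Hnf4a and Nr5a2 were higher in liver too. In liver 15 of the 47 receptor genes were higher, where 11.2% of all genes were, and 5 were lower, where 9.73% of all genes were. The members' median liver difference was 0.31, against -0.06 over all genes tested. Of the 15, 12 had both liver libraries above all 6 others, with almost no gap in Ppard. Here and in brain and heart below, calling a gene already favours such separation, and its share over all called genes is not given.

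Nr1i3 encodes the constitutive androstane receptor CAR, a sensor of foreign compounds that drives drug metabolism. It stood at 3.39 and 3.48 in brain, 3.08 and 4.05 in heart, 3.04 and 3.5 in kidney, and 7.44 and 6.43 in liver. Both liver libraries lay far above the rest, and FFPE minus Frozen was -1.01 there. The liver difference was 3.51 ± 0.29, which is 11.4-fold (adjusted p = 6.59e-11), the largest of the 47 genes in any organ. The neighbour Tomm40l overlaps Nr1i3 by 1044 bases, 21.3% of its span, and Tomm40l itself was higher in liver by 1.62 ± 0.21 (adjusted p = 2.51e-07), so reads in that stretch cannot be assigned to one gene. Nr1i2, its paralog, encodes the pregnane X receptor PXR. Nr1i2 measured 4.06 and 3.70 in brain, 4.77 and 4.28 in heart, 4.64 and 4.57 in kidney, and 6.58 and 6.07 in liver. Liver lay above every other library and brain below every other. The liver difference of Nr1i2 was 1.99 ± 0.23 (adjusted p = 4.43e-08).

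Hnf4a encodes hepatocyte nuclear factor 4 alpha, a regulator of hepatocyte and proximal tubule identity. It measured 4.93 and 4.33 in brain, 4.28 and 4.49 in heart, 6.43 and 6.21 in kidney, and 7.74 and 7.53 in liver. The order was liver, kidney, then brain and heart, and only the last pair overlapped. The liver difference was 2.52 ± 0.21 (5.75-fold, adjusted p = 6.92e-11). Hnf4a was also higher in kidney, by 0.77 ± 0.21 (adjusted p = 0.0234), although both kidney libraries lay below liver. The antisense gene Hnf4aos covers 52.8% of the Hnf4a span, and without strand its reads cannot be told from those of Hnf4a. Its paralog Hnf4g, known mainly from gut and kidney, read 4.71 and 4.10 in brain, 4.07 and 4.07 in heart, 4.72 and 4.61 in kidney, and 4.47 and 4.90 in liver. Hnf4g passed in no organ, and its brain, kidney and liver libraries overlapped.

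Nr1h4 encodes FXR, the bile acid receptor. It measured 4.44 and 3.95 in brain, 4.09 and 3.84 in heart, 5.91 and 5.26 in kidney, and 6.82 and 6.61 in liver. Liver was highest, kidney second, and brain and heart overlapped below. Nr1h4 was higher in liver by 2.13 ± 0.22 (4.39-fold, adjusted p = 4.47e-09). Nr0b2 encodes SHP, a receptor without a DNA-binding domain that is induced by FXR and represses bile acid synthesis. Nr0b2 gave 3.57 and 3.42 in brain, 5.37 and 4.89 in heart, 4.68 and 4.57 in kidney, and 6.43 and 6.18 in liver. Liver was above all other libraries and brain below all of them, with differences of 1.89 ± 0.23 in liver (adjusted p = 8.65e-08) and -1.86 ± 0.23 in brain (adjusted p = 2.86e-07).

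Nr5a2 encodes LRH-1, which acts with SHP on bile acid genes. It measured 4.89 and 5.01 in brain, 4.46 and 5.29 in heart, 4.43 and 4.96 in kidney, and 7.47 and 6.99 in liver. The 6 libraries outside liver lay between 4.43 and 5.29 and those of different organs overlapped. The liver difference was 2.39 ± 0.23 (5.23-fold, adjusted p = 1.09e-09). Its paralog Nr5a1 encodes SF-1, which is known from adrenal, gonad and hypothalamus. Nr5a1 read 4.42 and 3.61 in brain, 3.22 and 3.30 in heart, 4.08 and 4.17 in kidney, and 3.10 and 4.29 in liver and passed in no organ, and the liver pair differed by 1.19 between preservations.

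The RXR partner Rxra, which pairs with most of these sensors, had 5.91 and 5.66 in brain, 6.24 and 6.30 in heart, 5.98 and 7.06 in kidney, and 7.76 and 7.44 in liver. Both liver libraries lay above the rest, and brain lay below. Its liver difference was 1.41 ± 0.23 (adjusted p = 1.6e-05). Rxrb and Rxrg are its paralogs. Rxrb was at 6.53 and 6.34 in brain, 7.77 and 6.53 in heart, 7.02 and 6.41 in kidney, and 7.61 and 6.58 in liver. Rxrg was at 4.45 and 4.44 in brain, 5.57 and 4.84 in heart, 4.32 and 4.23 in kidney, and 5.40 and 4.58 in liver. Neither passed in any single organ, and in both the Frozen heart and Frozen liver libraries were the 2 highest of the 8. By limma's F test over the organs Rxrg passed (adjusted p = 0.035) and Rxrb did not (adjusted p = 0.0916).

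Ppara encodes the fatty acid sensor that drives fat burning in fasted liver. It measured 5.74 and 5.66 in brain, 7.60 and 7.17 in heart, 6.81 and 6.84 in kidney, and 8.09 and 7.64 in liver. Brain lay below all other libraries, and liver above all. It was higher in liver by 1.23 ± 0.21 (adjusted p = 2.92e-05), higher in heart by 0.59 ± 0.21 (adjusted p = 0.0462), and the brain difference was -1.66 ± 0.21 (adjusted p = 3.72e-07). Ppard, the most widely expressed of its paralogs, had 5.37 and 5.01 in brain, 5.88 and 5.20 in heart, 5.31 and 5.39 in kidney, and 6.32 and 5.88 in liver. The liver pair of Ppard was highest, with a difference of 0.74 ± 0.21 (adjusted p = 0.011), and the other organs overlapped. Liver FFPE and heart Frozen were nearly equal for Ppard, at 5.882 and 5.880.

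The liver X receptors LXR-beta and LXR-alpha, sensors of oxidised cholesterol, are encoded by Nr1h2 and Nr1h3. Nr1h2 gave 5.09 and 4.72 in brain, 6.11 and 5.87 in heart, 5.87 and 5.89 in kidney, and 6.36 and 5.72 in liver. Nr1h3 gave 5.24 and 5.45 in brain, 6.45 and 5.74 in heart, 6.01 and 5.39 in kidney, and 6.96 and 6.19 in liver. Brain was the lowest organ for both, and in Nr1h3 the brain and kidney libraries overlapped. Nr1h3 was higher in liver by 0.86 ± 0.22 (adjusted p = 0.00338), while the liver difference of Nr1h2 was 0.45 ± 0.21 (adjusted p = 0.137). Nr1h5, the gene of FXR-beta, stayed between 3.58 and 4.41 in the 8 libraries and passed nowhere: it had 4.08 and 4.41 in brain, 3.58 and 4.23 in heart, 4.09 and 4.13 in kidney, and 3.58 and 3.84 in liver.

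Among the remaining receptors higher in liver, Nr2c1, which encodes the orphan receptor TR2, differed by 0.98 ± 0.21 (adjusted p = 0.000625). Nr2f6, a COUP-TF relative also called EAR2, had 5.51 and 5.71 in brain, 7.11 and 6.51 in heart, 7.18 and 6.94 in kidney, and 7.76 and 6.90 in liver. Its brain libraries were the 2 lowest, and liver overlapped heart and kidney. The liver difference of Nr2f6 was 0.84 ± 0.22 (adjusted p = 0.00405). Rara, the gene of retinoic acid receptor alpha, had 5.62 and 6.28 in brain, 7.46 and 7.11 in heart, 7.06 and 7.06 in kidney, and 7.72 and 7.21 in liver. Liver and heart overlapped and brain lay below all, and the liver difference was 0.70 ± 0.22 (adjusted p = 0.0213). Nr6a1, the germ cell nuclear factor, differed by 0.74 ± 0.21, and the glucocorticoid receptor gene Nr3c1 by 0.68 ± 0.21, with limma adjusted p = 0.00953 and 0.0153. For Nr3c1 limma's F test over the organs did not pass (adjusted p = 0.0521).

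The 5 genes lower in liver were Nr4a1, Esrrb, Vdr, Nr2f1 and Thra. Nr4a1 encodes NUR77, an early response orphan receptor, and its values are given with heart. The liver difference of Nr4a1 was -1.03 ± 0.24 (adjusted p = 0.0013). Esrrb encodes an estrogen-related receptor, an orphan relative of the estrogen receptors. Esrrb had 5.07 and 4.91 in brain, 6.28 and 5.14 in heart, 5.16 and 5.61 in kidney, and 4.52 and 4.37 in liver. Its liver pair was the lowest, with a difference of -0.92 ± 0.25 (adjusted p = 0.0058). Thra, the gene of thyroid hormone receptor alpha, differed by -0.72 ± 0.21 (adjusted p = 0.013), with both liver libraries below the other 6.

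The liver calls depended in part on liver Frozen. Without it 8 of the 15 genes still passed (Hnf4a, Nr0b2, Nr1h4, Nr1i2, Nr1i3, Nr5a2, Ppara and Rxra), while Nr1h3, Nr2c1, Nr2f6, Nr3c1, Nr6a1, Ppard and Rara were at adjusted p = 0.0662 to 0.552, and Esrrb, Nr2f1 and Nr4a1 were lost among the lower genes. Without kidney Frozen 11 of the 15 passed, without liver FFPE 14 of 15 and 2 of the 5 lower genes, and without kidney FFPE 3 of those 5. Rara was also lost without brain Frozen, heart FFPE or kidney FFPE, and Nr2f1 was kept in liver only without brain Frozen and without heart FFPE.

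**Figure D2:**
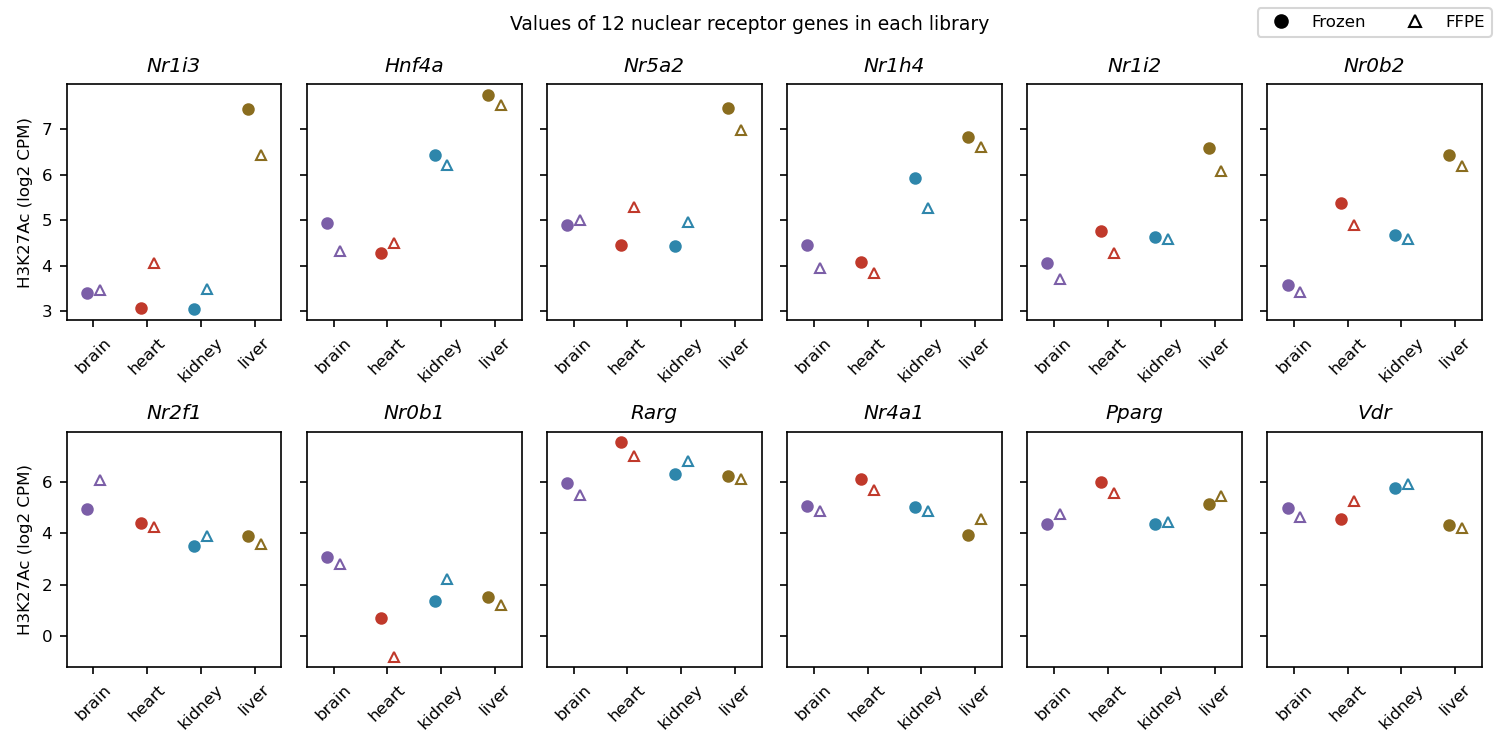
H3K27Ac (log2 CPM) of 12 nuclear receptor genes in each library, with a filled circle for Frozen and an open triangle for FFPE. In the upper row both liver points lie above those of every other organ, and in the lower row the highest pair is brain for Nr2f1 and Nr0b1, heart for Rarg, Nr4a1 and Pparg and kidney for Vdr.

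Genes known to respond to the liver receptors were counted beside them, from lists drawn from textbook knowledge. The lists were chosen with earlier results of these data known, so the counts are not independent of the data. Of 12 genes of the fatty acid response driven by PPAR-alpha, 11 were higher in liver, with a median difference of 1.23 against -0.06 over all genes. Among these Angptl4, which encodes a secreted inhibitor of lipoprotein lipase, was higher by 2.24 ± 0.22. In heart, where Ppara was also higher, 1 of the 12 was higher and 5 were lower, with a median of -0.53. Of 9 bile acid genes that FXR acts on, 6 were higher in liver, with a median of 2.09. Cyp8b1, a bile acid hydroxylase that is also on the hepatocyte marker list, was higher by 4.65 ± 0.29 and Slc10a1, the bile acid uptake carrier, by 2.64 ± 0.25. In kidney, the organ second highest for Nr1h4, 1 of the 9 was higher and 4 were lower. Of 10 drug metabolism genes that CAR and PXR act on, 8 were higher in liver, among them Cyp3a11 at 2.94 ± 0.28. Of 8 cholesterol genes that LXR acts on, 6 were higher and 1 lower. Hepatocyte markers moved with all of these lists: their summed level was 1693 and 1211 CPM in liver Frozen and FFPE, against 112 to 174 CPM in the other 6 libraries, and their part in the receptor differences was not tested.

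Of 23 genes that make, carry or break down receptor ligands, 11 were higher in liver, 1 (Hsd11b2) was lower and 11 did not pass. Aldh1a1, which makes retinoic acid, was higher by 2.36 ± 0.25 (limma adjusted p = 4.73e-09) and Cyp7a1, the rate-limiting enzyme of bile acid synthesis, by 2.09 ± 0.27 (limma adjusted p = 2.26e-07). Of 24 coregulators, the proteins that receptors recruit, 2 were higher and 2 lower in liver and in brain, and the list's median was between -0.14 and 0.06 in the 4 organs. Lpin1, a coactivator of PPAR-alpha, was the largest rise in liver at 1.20 ± 0.20 (limma adjusted p = 3.22e-05).

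Brain was the organ in which most receptor genes were low. In brain 17 of the 47 genes were lower, where 13.6% of all genes were, and 5 were higher, where 8.73% of all genes were. The members' median was -0.21 against 0.04 over all genes. Of the 17 lower genes 12 had both brain libraries below all 6 others, and the 5 that overlapped (Hnf4a, Nr1h3, Nr1h4, Nr1i3 and Nr5a2) are all among the genes higher in liver. In a comparison of brain with heart and kidney alone, added after the data had been seen, 10 of the 17 stayed lower, where 10.2% of all genes were: Rara, Rarb, Rarg, Ppara, Nr1h2, Hnf4a, Nr0b2, Esrra, Nr2f2 and Nr2f6. In that comparison 3 genes were higher, where 6.72% of all genes were.

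Nr2f1 and Nr2f2 encode COUP-TFI and COUP-TFII, orphan receptors of which the first patterns the cortex and the second is known from veins and mesenchyme. Nr2f1 measured 4.93 and 6.07 in brain, 4.42 and 4.24 in heart, 3.49 and 3.88 in kidney, and 3.88 and 3.60 in liver. Nr2f2 measured 5.45 and 6.30 in brain, 7.14 and 7.37 in heart, 7.37 and 8.19 in kidney, and 7.40 and 7.16 in liver. The paralogs had opposite order: both brain libraries were the highest for Nr2f1 and the lowest for Nr2f2. The brain difference was 1.58 ± 0.28 for Nr2f1, which is 3-fold (adjusted p = 6.23e-05), and -1.56 ± 0.22 for Nr2f2 (adjusted p = 3.07e-06). Brain FFPE exceeded brain Frozen in both, by 1.14 for Nr2f1 and 0.85 for Nr2f2. Nr2f1 shares 8.7% of its span with the noncoding gene A830082K12Rik, which differed in brain by 0.60 ± 0.30 (limma adjusted p = 0.165). Nr2f2 shares 9.2% with B130024G19Rik, which differed by -0.96 ± 0.25 (limma adjusted p = 0.00491).

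Nr0b1 encodes DAX1, a receptor without a DNA-binding domain that opposes SF-1 in the adrenal, gonad and pituitary. It is the member with the fewest reads, from 2 counts in heart FFPE to 49 in brain Frozen, and gave 3.10 and 2.80 in brain, 0.72 and -0.78 in heart, 1.36 and 2.22 in kidney, and 1.54 and 1.20 in liver. Both brain libraries were highest and both heart libraries lowest. The brain difference was 1.91 ± 0.53 (adjusted p = 0.00757) and the heart difference -2.07 ± 0.53 (adjusted p = 0.00506), which was at adjusted p = 0.204 without heart FFPE. Of 8 pituitary markers 0 were higher in brain by limma (2 at an unadjusted p under 0.05), none was at 0 counts in a brain library, and their summed level was 97.3 and 93.4 CPM in brain against 53.7 to 110 CPM in the other organs.

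The other 3 genes higher in brain were Nr4a3, Pgr and Rorb. Nr4a3, the gene of NOR-1 and a relative of NUR77, had 4.28 and 4.23 in brain, 3.04 and 3.52 in heart, 3.95 and 2.79 in kidney, and 3.16 and 3.63 in liver. The brain difference of Nr4a3 was 0.91 ± 0.33 (adjusted p = 0.0458), but limma's F test over the organs did not pass (adjusted p = 0.156). Pgr, the progesterone receptor gene, had 6.30 and 5.89 in brain, 4.64 and 5.27 in heart, 5.77 and 5.98 in kidney, and 5.17 and 5.11 in liver. Brain and kidney overlapped above, and heart and liver overlapped below. The brain difference of Pgr was 0.77 ± 0.22 (adjusted p = 0.0104). Rorb, a clock-related receptor known from cortical neurons and the retina, had 6.05 and 5.90 in brain, 4.86 and 5.41 in heart, 5.63 and 5.70 in kidney, and 5.02 and 5.26 in liver. Its brain pair was the highest, by 0.66 ± 0.22 (adjusted p = 0.0236). Rora, its paralog known from cerebellum and lymphoid cells, had 4.98 and 4.74 in brain, 4.79 and 4.83 in heart, 4.24 and 4.23 in kidney, and 4.88 and 5.09 in liver and passed in no organ.

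The retinoic acid receptors were low in brain as a set, with 3 of 3 lower. Their brain differences were -1.32 ± 0.22 for Rara, -0.93 ± 0.22 for Rarg and -0.69 ± 0.22 for Rarb, with limma adjusted p = 3.5e-05, 0.00163 and 0.018. Of 7 genes that respond to retinoic acid, 4 were lower in brain, with a median of -1.14. Dhrs3, which limits retinoic acid supply, had the largest of these at -2.55 ± 0.21 (limma adjusted p = 2.09e-10). Of 9 genes that respond to the glucocorticoid receptor, 7 were lower in brain, led by the gluconeogenic Pck1 at -2.71 ± 0.22. Pck1 was also lower in heart, at -2.63 ± 0.22, and higher in liver by 3.14 ± 0.22 and in kidney by 2.20 ± 0.22. Of the 9 genes, 5 were higher and 2 lower in heart, and 4 were higher in liver. Nr3c1 itself differed in brain by -0.20 ± 0.21 (adjusted p = 0.518). Endothelial markers moved the same way in brain, with 6 of 8 lower, a summed level of 246 and 249 CPM in brain against 329 to 880 CPM elsewhere and none at 0 counts, and their part in these differences was not tested.

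The brain calls depended on both brain libraries. Without brain Frozen 11 of the 17 lower genes and 1 of the 5 higher ones (Nr2f1) passed, and without brain FFPE 12 of 17 and 2 of 5 (Pgr and Rorb), with Nr0b1, Nr2f1 and Nr4a3 at adjusted p = 0.0775 to 0.203. Without kidney FFPE 13 of 17 and 3 of 5 passed, and without heart Frozen Nr4a3 and Rorb were lost. Nr4a3 and Nr5a2 were lost without liver Frozen and Nr5a2 without heart FFPE.

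In heart the genes of 2 of the 3 retinoic acid receptors (Rarb and Rarg), PPAR-gamma, PPAR-alpha, NUR77, REV-ERB alpha, thyroid hormone receptor alpha and Esrrb were higher. In heart 8 of the 47 genes were higher, where 9.42% of all genes were, and 6 were lower, where 7.31% of all genes were. The members' median was -0.05 against -0.04 over all genes. Of the 8, 6 had both heart libraries above all others.

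Nr4a1 stood at 5.06 and 4.87 in brain, 6.12 and 5.69 in heart, 5.01 and 4.87 in kidney, and 3.92 and 4.56 in liver. Heart was above and liver below all other libraries, and the heart difference was 1.19 ± 0.24 (2.29-fold, adjusted p = 0.0004). Its paralog Nr4a2, the gene of NURR1, known from dopamine neurons, had 5.37 and 5.69 in brain, 5.72 and 5.62 in heart, 5.07 and 4.99 in kidney, and 4.95 and 5.01 in liver. Nr4a2 passed in no organ, and its heart difference was 0.49 ± 0.22 (adjusted p = 0.122).

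Rarg, the gene of retinoic acid receptor gamma, measured 5.96 and 5.51 in brain, 7.53 and 7.02 in heart, 6.31 and 6.80 in kidney, and 6.21 and 6.10 in liver. Rarb, that of the beta receptor and itself a retinoic acid target, measured 5.06 and 5.15 in brain, 6.44 and 6.21 in heart, 5.29 and 5.59 in kidney, and 5.88 and 5.36 in liver. In both genes the heart pair lay above all other libraries and the brain pair below. The heart differences were 1.13 ± 0.22 for Rarg (adjusted p = 0.000259) and 0.94 ± 0.22 for Rarb (adjusted p = 0.00192). For Rara the heart difference was 0.46 ± 0.22 (adjusted p = 0.166).

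Pparg, the receptor gene of the fat cell programme that endothelium and macrophages also use, had 4.37 and 4.75 in brain, 5.99 and 5.56 in heart, 4.35 and 4.46 in kidney, and 5.14 and 5.43 in liver. The heart pair was highest, liver second, and brain and kidney overlapped below. It was higher in heart by 1.03 ± 0.23 (2.04-fold, adjusted p = 0.00163). Among 8 adipocyte markers 2 were higher and 1 lower in heart, their summed level was 227 and 223 CPM in heart against 126 to 178 CPM elsewhere, and none was at 0 counts. The 2 higher markers were Fabp4 by 2.37 ± 0.27 and Lipe by 1.10 ± 0.21, and the lower one was Cidec at -0.929 ± 0.295. Adipoq, the fat cell hormone gene, stood at 2.69 and 3.23 in heart and between 2.75 and 3.38 in the other organs. Endothelial markers were higher in heart for 7 of 8, with a summed level of 880 and 845 CPM against 246 to 468 CPM elsewhere and none at 0. Macrophage markers were higher in heart for 3 of 8, at 166 and 169 CPM against 124 to 158 CPM, none at 0. The part of these cells in the heart differences was not tested.

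Nr1d1 and Thra lie tail to tail, share 1075 bases and were both higher in heart, so reads in that overlap cannot be assigned. Nr1d1 encodes the clock repressor REV-ERB alpha and had 6.24 and 6.84 in brain, 7.67 and 7.43 in heart, 6.57 and 6.87 in kidney, and 7.20 and 6.36 in liver. The heart pair was above the rest and the difference was 0.87 ± 0.23 (adjusted p = 0.00722), while Thra differed by 0.67 ± 0.21 (adjusted p = 0.0252). Nr1d2, the gene of REV-ERB beta, had 6.22 and 6.30 in brain, 6.77 and 6.29 in heart, 6.43 and 6.25 in kidney, and 7.09 and 5.97 in liver and passed in no organ. No time of day for the tissues is given in the labels. Of 7 clock genes that REV-ERB and ROR receptors act on, 2 were higher in liver, Per2 by 1.14 ± 0.21 (limma adjusted p = 0.00011) and Nfil3. In heart 0 of the 7 were higher and 0 lower.

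Esrrb was higher in heart by 0.77 ± 0.25 (adjusted p = 0.0273), but only the Frozen heart library stood apart, at 6.28, and the FFPE one was at 5.14. The paralogs Esrra and Esrrg are known for mitochondrial genes in heart. Esrra had 5.10 and 5.13 in brain, 5.40 and 5.58 in heart, 6.0 and 6.32 in kidney, and 6.20 and 5.64 in liver. Esrrg had 5.54 and 5.09 in brain, 5.21 and 5.18 in heart, 5.66 and 5.85 in kidney, and 4.45 and 5.43 in liver. Esrra was lower in brain by -0.74 ± 0.22 (adjusted p = 0.0117) and neither gene passed in heart.

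Of the 6 genes lower in heart, 5 overlapped libraries of other organs (Pgr, Nr1h4, Nr1i3, Hnf4a and Nr5a2), and Nr0b1 did not. Against brain and kidney alone, Nr1i3 and Nr5a2 no longer passed in heart, and 4 of the 6 did, with Rorb besides, where 7.74% of all genes were lower. In that comparison 9 genes were higher, where 10.8% of all genes were, 6 of them among the 8.

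The heart calls depended on heart Frozen. Without it none of the 8 passed (adjusted p = 0.125 to 0.917), although heart FFPE alone kept all 8 differences above 0, from 0.17 in Esrrb to 0.93 in Nr4a1. Without heart Frozen 3 of the 6 lower genes passed, without kidney Frozen 5 of the 8 passed and without kidney FFPE 3 of the 6 lower genes, Ppara was kept only without brain FFPE and without liver Frozen, Thra was lost without brain Frozen, and Nr1i3 and Nr5a2 were lost without liver Frozen. With a prior variance that does not follow the mean level, limma called none of the 8 (adjusted p = 0.0551 to 0.199).

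Kidney had few calls. In kidney 3 of the 47 genes were higher (Vdr, Nr2f2 and Hnf4a), where 3.19% of all genes were, and 3 were lower (Nr1i3, Nr5a2 and Pparg), where 2.03% of all genes were. The members' median was -0.10 against -0.02 over all genes. The kidney count depended on the scaling: quantile normalization, and likewise a common median and spread, gave 7 higher and 5 lower, and a library size outside mitochondrial genes gave 6 higher. Over all genes the number higher in kidney went from 860 to 1388 with quantile normalization and to 1125 with that library size.

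Vdr encodes the vitamin D receptor, which controls calcium and vitamin D handling in the renal tubule. It had 4.97 and 4.64 in brain, 4.57 and 5.26 in heart, 5.75 and 5.90 in kidney, and 4.34 and 4.19 in liver. Both kidney libraries lay above all others and both liver libraries below. The kidney difference was 1.16 ± 0.24 (2.24-fold, adjusted p = 0.00137) and the liver difference -0.92 ± 0.24 (adjusted p = 0.00443). Of 6 genes that respond to vitamin D, 2 were higher in kidney, S100g, a calcium-binding protein, by 2.77 ± 0.63 (limma adjusted p = 0.00422) and Cyp27b1, the enzyme that makes active vitamin D, by 1.02 ± 0.27.

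Nr2f2 was higher in kidney by 0.98 ± 0.22 (adjusted p = 0.00468), with kidney FFPE above every other library and kidney Frozen within the heart and liver values. B130024G19Rik, which overlaps 9.2% of the Nr2f2 span, was also higher in kidney, by 1.315 ± 0.25 (limma adjusted p = 0.00062). Reads in that stretch cannot be assigned to one gene. Nr3c2, the mineralocorticoid receptor gene, ranged from 4.70 to 5.33 over the 8 libraries and differed in kidney by 0.02 ± 0.22 (adjusted p = 0.985). Of 6 aldosterone response genes, 4 were higher in kidney, with a median of 0.95 against -0.02 over all genes. Hsd11b2, which shields the receptor from glucocorticoid, was higher by 1.36 ± 0.29 (limma adjusted p = 0.00262). The channel subunit gene Scnn1a was higher by 1.05 ± 0.21 (limma adjusted p = 0.00135). Of 8 adrenal cortex markers 0 passed in kidney by limma (1 higher and 1 lower at an unadjusted p under 0.05), where their summed level was 121 and 124 CPM against 75.2 to 175 CPM elsewhere.

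All 3 genes lower in kidney overlapped other organs, and against brain and heart alone none of them passed. That comparison gave 6 genes higher in kidney, where 4.21% of all genes were, which were the 3 above with Nr1h4, Esrra and Nr2f6, and 1 lower (Nr2f1), where 3.07% of all genes were. Without either kidney library none of the 6 kidney calls passed, with adjusted p from 0.0539 to 0.476 without kidney FFPE and from 0.0665 to 0.454 without kidney Frozen, and Hnf4a was also lost without heart Frozen and Pparg without heart Frozen or brain FFPE.

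**Figure D3:**
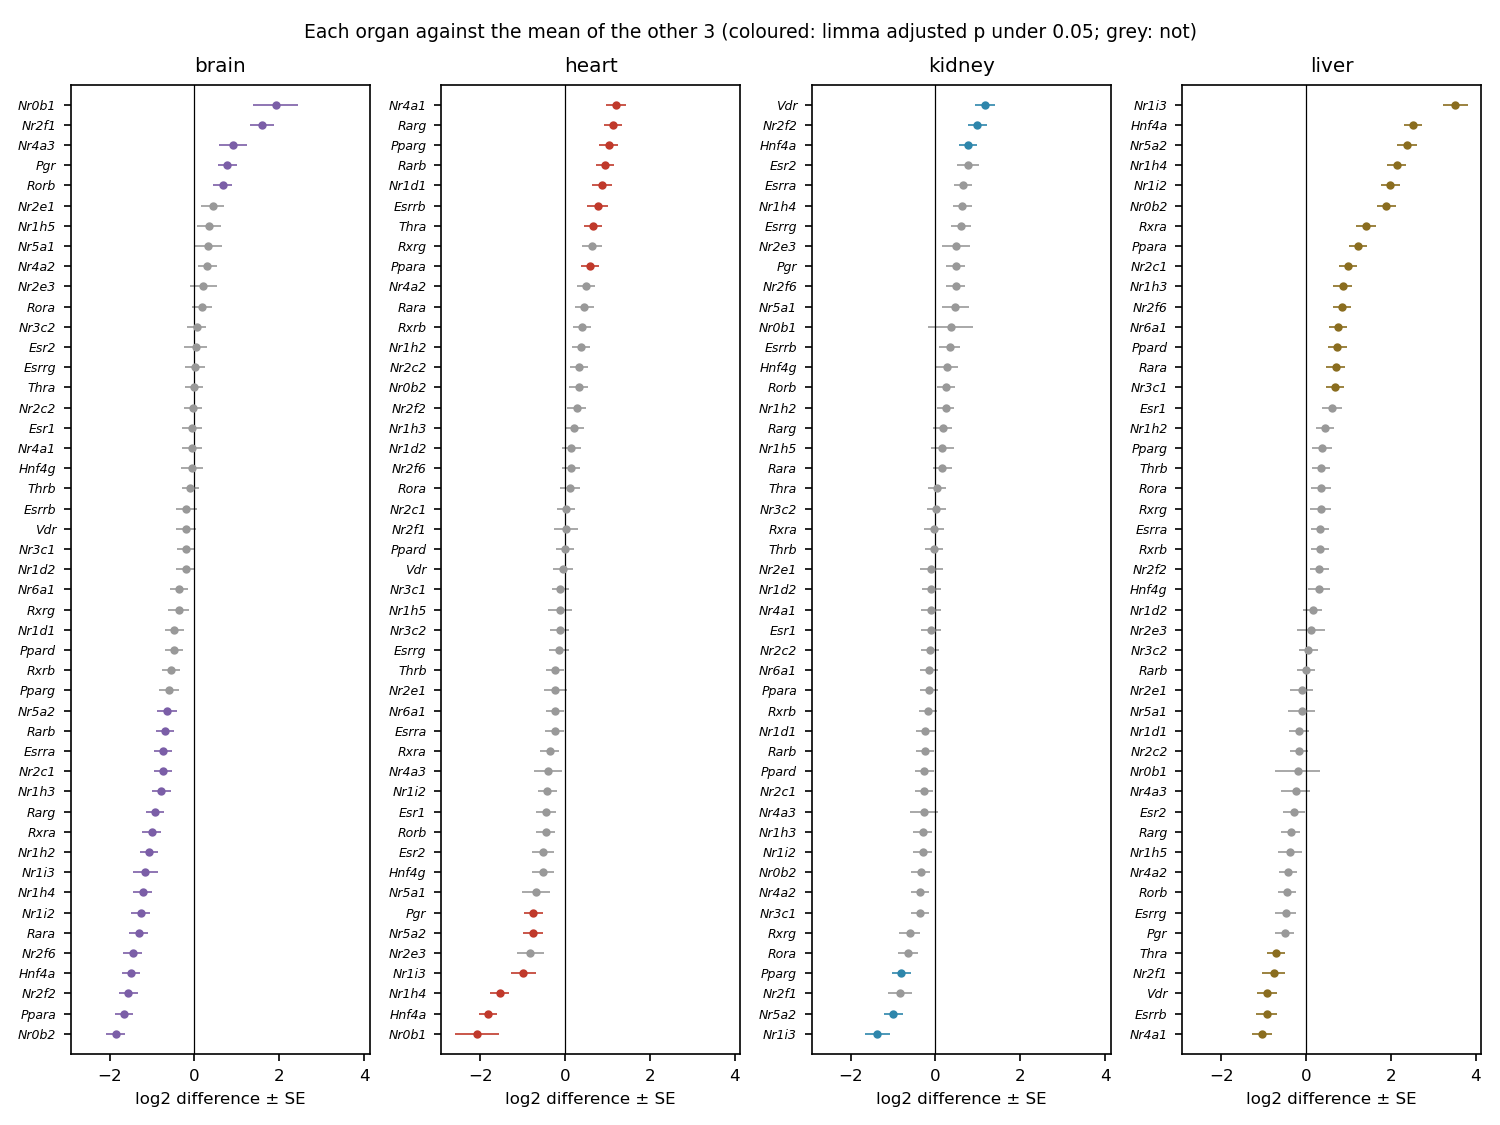
Difference of each organ from the mean of the other 3 (log2, with bars of 1 SE) for the 47 nuclear receptor genes, sorted within each panel. Coloured points passed limma's adjusted p of 0.05: 15 genes are on the right in liver and 17 on the left in brain, against 3 and 3 in kidney.

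The 16 genes that passed in no organ were Nr3c2, Esr1, Esr2, Thrb, Rxrb, Rxrg, Nr1h5, Hnf4g, Nr5a1, Esrrg, Nr1d2, Rora, Nr2c2, Nr2e1, Nr2e3 and Nr4a2. Their range over the 8 libraries went from 0.51 log2 units in Thrb to 1.43 in Rxrb, with a median of 0.96. Thrb, the thyroid hormone receptor beta gene that is known as the main one of liver, had liver values of 5.73 and 5.80 and 5.29 to 5.49 elsewhere, so its pair was highest but by little. The estrogen receptor gene Esr1 differed in liver by 0.61 ± 0.23 (adjusted p = 0.0615), and Esr2 in kidney by 0.77 ± 0.26 (adjusted p = 0.0886). The neural receptor genes Nr2e1 (TLX) and Nr2e3 (the photoreceptor receptor) differed in brain by 0.42 ± 0.26 and 0.21 ± 0.33, with limma adjusted p = 0.264 and 0.683. Nr2c2, the gene of TR4 and paralog of Nr2c1, ranged from 5.23 to 5.86.

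Frozen and FFPE libraries were also compared with each other over all 47 genes. The sign of the organ difference was the same in both preservations for 36 genes in brain (76.6%, against 73.3% of all genes), 40 in heart (85.1% against 70.2%), 31 in kidney (66.0% against 60.2%) and 36 in liver (76.6% against 66.9%). Of the 62 organ calls all 62 had the same sign in both, which the choice of called genes largely fixes. Among these calls the difference was larger in Frozen for 43 and in FFPE for 19. Of the 15 genes higher in liver 14 differed more in Frozen, with medians of 1.37 and 1.08, and of the 8 higher in heart all 8 did, with medians of 1.20 and 0.71. In brain the 17 lower genes had medians of -1.17 and -1.14. Over all genes of the table the standard deviation of the log2 values was 2.40 and 2.09 in heart, Frozen then FFPE. It was 2.39 and 2.05 in liver, 2.05 and 2.03 in kidney, and 1.96 and 1.94 in brain. The part of this wider Frozen spread in the receptor differences was not tested.

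**Figure D4:**
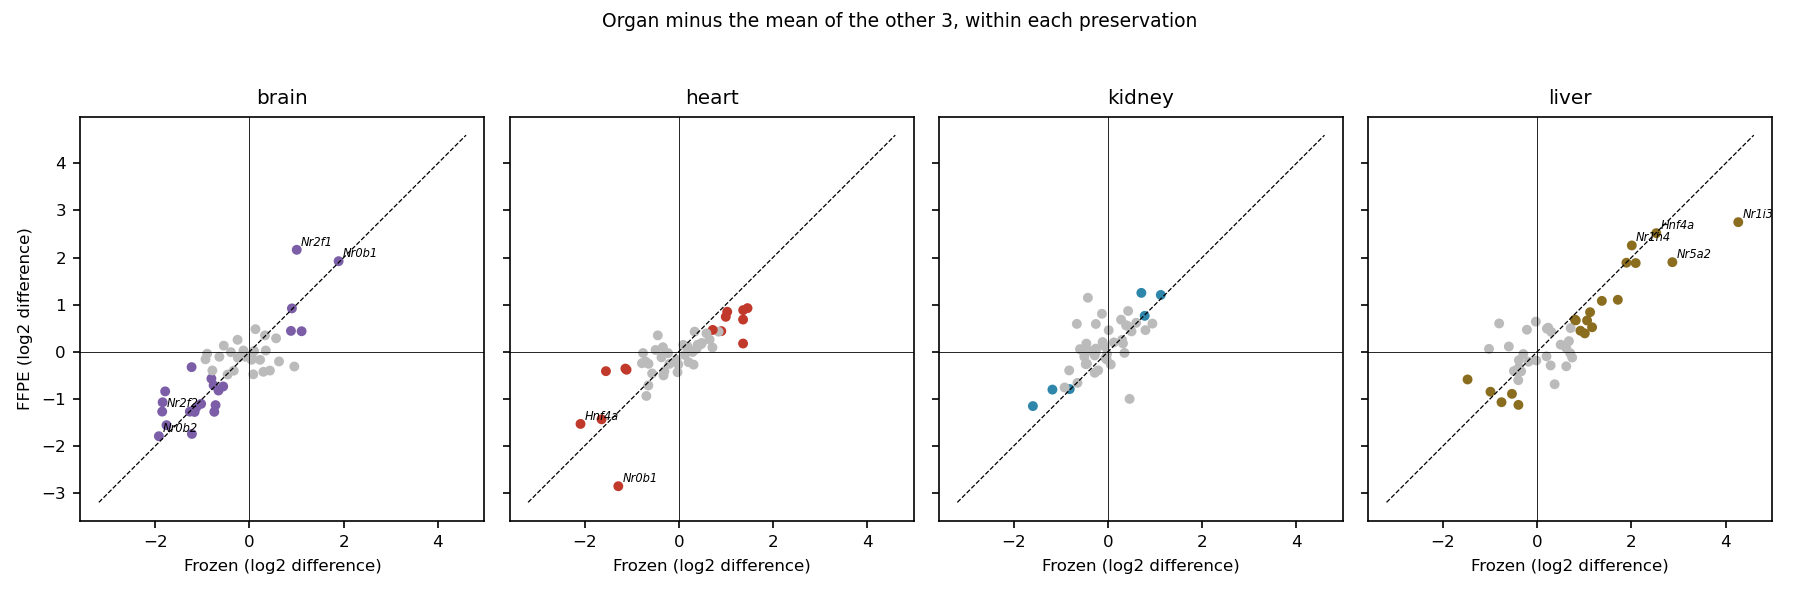
Organ minus the mean of the other 3 in Frozen (x axis) and in FFPE (y axis), both log2, for the 47 nuclear receptor genes, with called genes coloured and the dashed line marking equal values. Coloured points were chosen by the mean of both axes and share a sign on both, and those of heart and liver to the right lie mostly under the line.

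Between FFPE and Frozen libraries over the 4 organs, 1 of the 47 genes passed, where 1.91% of all genes were lower in FFPE, and none was higher, where 2.0% of all genes were. At an unadjusted p under 0.05 limma gave 4 lower and 1 higher. The gene was Rxrb, lower in FFPE in 4 of 4 organs, with FFPE minus Frozen at -1.24 in heart, -1.03 in liver, -0.62 in kidney and -0.19 in brain. Its mean difference was -0.77 ± 0.19 (limma adjusted p = 0.013). The call was lost without any 1 of the heart, kidney or liver libraries (adjusted p = 0.0633 to 0.236), without a filter (0.0583) and without the mean trend in the variance (0.265).

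The next 5 by size did not pass. These were Nr1h3 at -0.47 ± 0.19, Nr1d2 at -0.42 ± 0.19, Nr2f2 at 0.42 ± 0.19, Rxrg at -0.41 ± 0.21 and Nr1h4 at -0.40 ± 0.19, with limma adjusted p from 0.178 to 0.344. The receptor genes' median over organs was -0.03 against 0.02 over all genes. Within an organ there is 1 library for each preservation and no test. There the median absolute difference was 0.26 in brain and in kidney, 0.42 in heart and 0.35 in liver, with 31 of the 47 genes lower in FFPE in liver and 30 higher in kidney.

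**Figure D5:**
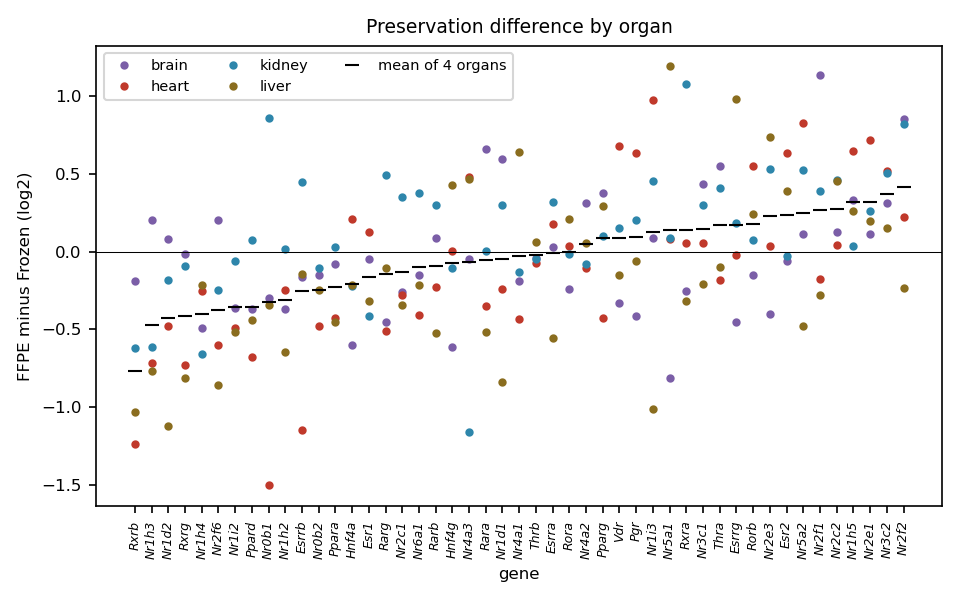
FFPE minus Frozen (log2) for each nuclear receptor gene, with 1 point per organ and a bar for the mean of the 4 organs, sorted by that mean. Rxrb, at the left end, has its 4 points below 0, and most other genes have points on both sides of 0.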

How the data were processed

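The submitters' processing notes name Bowtie2, featureCounts, limma and mouse build mm10, without the role of each. Tool versions and the counted part of each gene were not given in the sources used here. Log2 values of 27179 genes in 8 columns make up the deposited table. In every column 100% of the values returned whole counts, within 0.001, as log2 CPM with 0.5 added to each count. The labels describe 16 H3K27Ac samples, 2 per organ and preservation, and 8 inputs. The columns carry no replicate number, so each was taken as 1 library, and neither ChIP runs nor library kits could be matched to columns. Inputs were not analysed here.

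Genes at 0 counts in all libraries (235) were removed, leaving 26944. The log2 values were fitted with limma 3.58.1 in R 4.3.3 (organ and preservation as additive terms, two-sided tests, eBayes with a mean trend, 3 residual degrees of freedom, Benjamini-Hochberg adjustment over all genes, threshold 0.05) after a check on simulated data. With 1 library per organ and preservation, the residual spread is how far the difference between preservations varied among organs. The p-values reflect only that spread and the trend over all genes, not replicates of an organ. That spread may be technical, since the labels name no animals. The SE of a gene drew mostly on the trend over all genes, with a median of 30.6 prior against 3 residual degrees of freedom. It therefore says little of how well the 2 libraries of an organ agree for that gene. Esrrb in heart had an SE of 0.25, with differences of 1.37 in Frozen and 0.17 in FFPE. Counting intervals are exact Poisson and cover counting error only.

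Values in every library were given for the 5 largest rises and 3 largest falls per organ, the 6 largest preservation differences and their paralogs. All 47 receptor genes matched RefSeq by identifier, and upstream sequences came from RefSeq's table of GRCm38.p6. Those of Nr3c1, Hnf4g, Nr5a1 and Thra were not used here. The members and gene lists were chosen with earlier results of these data known. Alternatives were other scalings, filters, offsets, prior variance, each library left out and, added later, organ comparisons without liver.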

Additional observations from a re-analysis of the deposited data

Results flagged for a closer look

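In a set of 4 organs, the preservation difference of 1 organ stood apart from the other 3 for 2 of the 47 receptor genes (4.26%), by Dixon's ratio of its gap to the whole range. Chance exceeds that limit in about 1 of 20 sets, and 4.92% of all genes tested exceeded it, so the receptor genes were not above the background. Nr1h3, the LXR-alpha gene, had FFPE minus Frozen at 0.20 in brain and between -0.77 and -0.61 in heart, kidney and liver (gap ratio 0.839). Nr2c1, the TR2 gene, had 0.35 in kidney and between -0.35 and -0.26 in the other organs (gap ratio 0.874).

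For 4 genes the difference between FFPE and Frozen had opposite signs in 2 organs, each beyond 0.5 log2 units and with a counting interval that excludes 0, with 1 library per preservation in each organ. Whether these differ was not tested. The share of all genes that meet the same rule is not given, so the 4 genes are not set against a background. Rara stood at 0.66 in brain and -0.52 in liver. Nr1i3 stood at 0.98 in heart and -1.01 in liver, the organ of its highest signal. Nr5a1 stood at 1.19 in liver and -0.81 in brain. Nr1d1 stood at 0.60 in brain and -0.84 in liver. Nr0b1 stood at -1.50 in heart and 0.86 in kidney, but its counting intervals include 0 in both organs.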

How the results depend on the processing

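Of 63 calls among the receptor genes, 18 were kept under all 7 other settings and with each of the 8 libraries left out, and 0 turned direction. Quantile normalization and a common median and spread each kept 55 calls, a library size outside mitochondrial genes 58, no filter 52, a median count of at least 10 and an offset of 2 counts 63 each, and a prior variance without trend 23. The library size outside mitochondrial genes moved the median of all genes, in brain from 0.037 to 0.211, in heart from -0.039 to -0.167, in kidney from -0.017 to 0.082, in liver from -0.059 to -0.205 and in FFPE from 0.018 to 0.129. Counts of receptor genes that moved by over 1.5 times were these, and the cause was not tested. Without trend, brain had 2 higher and 9 lower, heart 0 and 3, kidney 0 and 0, liver 9 and 0, FFPE 0 lower, and 10 genes differed among organs. Quantile normalization and a common median and spread both gave 5 higher in heart, 7 higher and 5 lower in kidney and 1 higher in FFPE. The library size outside mitochondrial genes gave 6 higher in kidney, 9 lower in liver and 1 higher in FFPE, and no filter gave 0 lower in FFPE. Over all genes the number lower in liver went from 2621 to 3646 with the library size outside mitochondrial genes. With quantile normalization the numbers over all genes went from 2538 to 2256 higher in heart and from 547 to 876 lower in kidney. Those higher in FFPE went from 539 to 534. With liver left out of the comparison, chosen after seeing the data, brain had 3 higher and 10 lower and kidney 6 higher and 1 lower. Leaving out 1 library in turn gave these ranges: brain higher 1 to 5 and lower 11 to 19, heart higher 0 to 10 and lower 3 to 8, kidney higher 0 to 4 and lower 0 to 4, liver higher 8 to 15 and lower 2 to 6, and FFPE lower 0 to 2. Where an organ was left with 1 library, that library was assumed to vary like the others. No paired analysis was possible because the columns carry no replicate number. Depth limits Nr0b1 most, whose 2 counts in heart FFPE have a 95% interval of 0.24 to 7.22.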
